A study of Mus musculus with 8 samples.

Results

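Cadherins, protocadherins and catenins were followed in the brains of mice with duplications of proximal chromosomes 7 and 15. The members were all probe sets whose only annotated gene symbol began with Cdh and a digit, Pcdh, Celsr, Dchs, Ctnna, Ctnnb or Ctnnd, or was Fat1 to Fat4. This rule found 54 probe sets of 34 genes among 22511 probe sets, or 34 of 9607 named genes. It used gene names only and no measured value. The array was the B array of the mouse 430 set, and Cdh1, Cdh2, Ctnnb1 and the Celsr genes had no probe set among the members.

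Each of the 8 samples was hybridised to 1 array, with no biological replicates. All animals were T9H/+ heterozygotes, carriers of a reciprocal translocation between chromosomes 7 and 15. The samples called maternal-7 here had a maternal duplication of proximal chromosome 7 together with a paternal duplication of proximal chromosome 15, and the paternal-7 samples had the reverse. In such mice both copies of a region come from the same parent, so the animals differ in the parental origin of these regions and serve for the study of imprinted genes. Each duplication was measured in 4 contexts, which were neonatal cortex (labelled forebrain), neonatal cerebellum, whole brain at 15.5 dpc and whole brain at 13.5 dpc. No array of animals without the duplications was used, the labels do not give the translocation breakpoints, and they do not say whether RNA was pooled or whether samples came from separate animals. The p-values below therefore measure only the spread between these arrays.

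Cadherins are membrane proteins that hold cells together through calcium-dependent binding between their outer domains. Classical cadherins bind inside the cell to catenins, which link them to actin and control how long they stay at the surface, while the protocadherins, the largest group in the brain, lack the classical catenin-binding tail. In the developing nervous system these proteins sort neurons into nuclei and layers, guide axons and help to match synaptic partners, and the giant Fat and Dachsous cadherins orient cells within a tissue.

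Signals are MAS5 values on a linear scale, and the array medians lay between 229.8 and 285.7. Tests were limited to probe sets with signals over the array median on at least 2 of 8 arrays, a filter that 40 member probe sets (74.1%) of 25 genes and 58.7% of all probe sets passed. Of the tested members, 25 were above the median on all 8 arrays. The 14 untested member probe sets never exceeded a signal of 311, and 9 genes had no tested probe set: Cdh3, Cdh18, Cdh19, Fat2, Ctnna1, Pcdhb4, Pcdhb21, Pcdh12 and Pcdh15. Log2 differences are on the log2(signal + 58.5) scale, which understates the change of dim probe sets, and ± is a standard error from limma. Neuronal marker genes, summed over the brightest probe set of each of the 5 on the array, had signals of 52597 to 62220 on the neonatal arrays, 34483 to 39611 at 15.5 dpc and 15362 to 22365 at 13.5 dpc. Markers of cycling cells ran the other way, from 551 to 726 on the neonatal and from 1102 to 2028 on the embryonic arrays. Of the cortical markers, Neurod2 and Bcl11b were higher in cortex than in cerebellum (1.64 ± 0.19 and 1.91 ± 0.23, limma adjusted p = 0.0319 and 0.0342). The other tested cortical markers, Emx1 and Emx2, did not pass (0.63 ± 0.21 and 0.22 ± 0.19, adjusted p = 0.522 and 0.893). Tfap2b, a marker of the cerebellum, was lower in cortex (-4.10 ± 0.32, adjusted p = 0.0098). The other tested cerebellar markers, Lhx9 and Zic1, did not pass (-1.16 ± 0.36 and 0.05 ± 0.23, adjusted p = 0.455 and 0.994).

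The strongest pattern was between ages. The delta protocadherins, receptors encoded outside the protocadherin clusters that act in adhesion and axon growth, stood higher in the neonatal than in the embryonic brain almost without exception. All 10 tested probe sets of the delta-2 group (Pcdh8, Pcdh10, Pcdh17 and Pcdh19) and 5 of 6 of the delta-1 group (Pcdh7, Pcdh9 and Pcdh11x) rose. Their median differences were 1.49 and 1.88. Over all members, 23 of 40 probe sets (14 genes) rose against 14.3% of all tested probe sets, and 3 fell against 16.4%. The median difference was 1.07 for the members and -0.16 for all tested probe sets. The embryonic samples were whole brain and the neonatal ones were dissected regions, so age and region cannot be told apart here. Fewer cells of a type and less RNA per cell cannot be told apart in such bulk samples either. In the same contrast all 4 tested neuronal markers rose and both tested cycling-cell markers fell. Of the other markers, the mesenchymal Prrx1 fell (-1.83 ± 0.16, adjusted p = 0.00104) and the cortical Emx2 fell (-0.61 ± 0.13, adjusted p = 0.0162). The other tested mesenchymal marker, Dcn, did not pass (-0.12 ± 0.14, adjusted p = 0.512). Nor did the cortical Emx1, Neurod2 and Bcl11b (-0.36, -0.13 and 0.06, adjusted p of 0.104 to 0.806). Rfx4, the 1 tested marker of radial glia, rose (0.81 ± 0.16, adjusted p = 0.0117). The part of these cells in the differences of the members was not tested.

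Some members entered the test because they were bright in the neonatal samples. Of the 40, 5 passed the filter only through neonatal arrays: the Pcdhgc4 probe set, 1 of 2 for Pcdhb16, both for Cdh8 and 1 of 2 for Cdh7. Another, for Ctnna3, passed only through embryonic arrays. With a filter on the mean over all 8 arrays, chosen after the values were seen, 19 of 35 member probe sets rose against 16.6% of all, and 3 of 35 fell against 20.4%. The scale of the arrays also matters for the lower calls. Centring each array on its median moved the median over all tested probe sets from -0.16 to 0.02, and the calls over all of them from 1887 higher and 2168 lower to 2398 higher and 1058 lower. The calls among members went from 23 higher and 3 lower to 25 higher and 1 lower, while quantile normalization gave 24 and 1.

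The 6 delta protocadherins with an entry in the RefSeq promoter table of GRCm38.p6 are shown by the 120 bases before their annotated start, because these genes moved together in the neonatal brain. Capitals mark each CCAAT box, a common proximal promoter element, on either strand (CCAAT or its complement ATTGG). The motif and the window were chosen after the sequences were seen. The regions are chr14:79771313-79771432 (minus strand) for Pcdh8, chr3:45378278-45378397 (plus) for Pcdh10, chr14:84443443-84443562 (plus) for Pcdh17, chrX:133688994-133689113 (minus) for Pcdh19, chr14:93890680-93890799 (minus) for Pcdh9 and chr5:57717961-57718080 (plus) for Pcdh7.
Pcdh8: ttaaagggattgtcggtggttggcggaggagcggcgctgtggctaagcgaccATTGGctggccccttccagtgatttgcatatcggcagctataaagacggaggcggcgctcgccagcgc
Pcdh10: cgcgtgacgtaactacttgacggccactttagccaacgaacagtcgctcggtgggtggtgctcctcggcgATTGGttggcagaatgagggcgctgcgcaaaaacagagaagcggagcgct
Pcdh17: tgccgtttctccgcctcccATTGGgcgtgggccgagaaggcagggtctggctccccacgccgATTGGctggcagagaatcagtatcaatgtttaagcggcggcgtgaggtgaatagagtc
Pcdh19: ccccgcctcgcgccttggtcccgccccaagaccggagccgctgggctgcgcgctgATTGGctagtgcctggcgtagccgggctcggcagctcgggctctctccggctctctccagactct
Pcdh9: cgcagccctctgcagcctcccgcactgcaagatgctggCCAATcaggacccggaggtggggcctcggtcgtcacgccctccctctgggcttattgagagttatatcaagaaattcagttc
Pcdh7: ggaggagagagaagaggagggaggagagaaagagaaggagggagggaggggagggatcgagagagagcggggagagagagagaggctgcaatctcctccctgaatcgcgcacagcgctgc

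The box began 68 bases before the start of Pcdh8, 50 before Pcdh10, 65 before Pcdh19 and 82 before Pcdh9. Pcdh17 had 2 boxes, at 101 and 58 bases, and the window of Pcdh7 held no match. Over 250 bases before the start and on both strands, CCAAT was found in 7 of the 9 promoters of genes that rose in the neonatal brain, in 9 of the 17 promoters of tested members and in 34.5% of 27025 promoters. The GC box GGGCGG was found in 4 of the 9, 6 of the 17 and 32.9%. TATAAA was found in 1 of the 9 (Pcdh8), 1 of the 17 and 13%. The E-box CAGGTG was found in 1 of the 9, 2 of the 17 and 17.1%, and TGACG, the core of the cAMP response element, in 3 of the 9, 4 of the 17 and 17.9%. These matches describe letters in a window and are no evidence of binding.

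**Figure D1:**
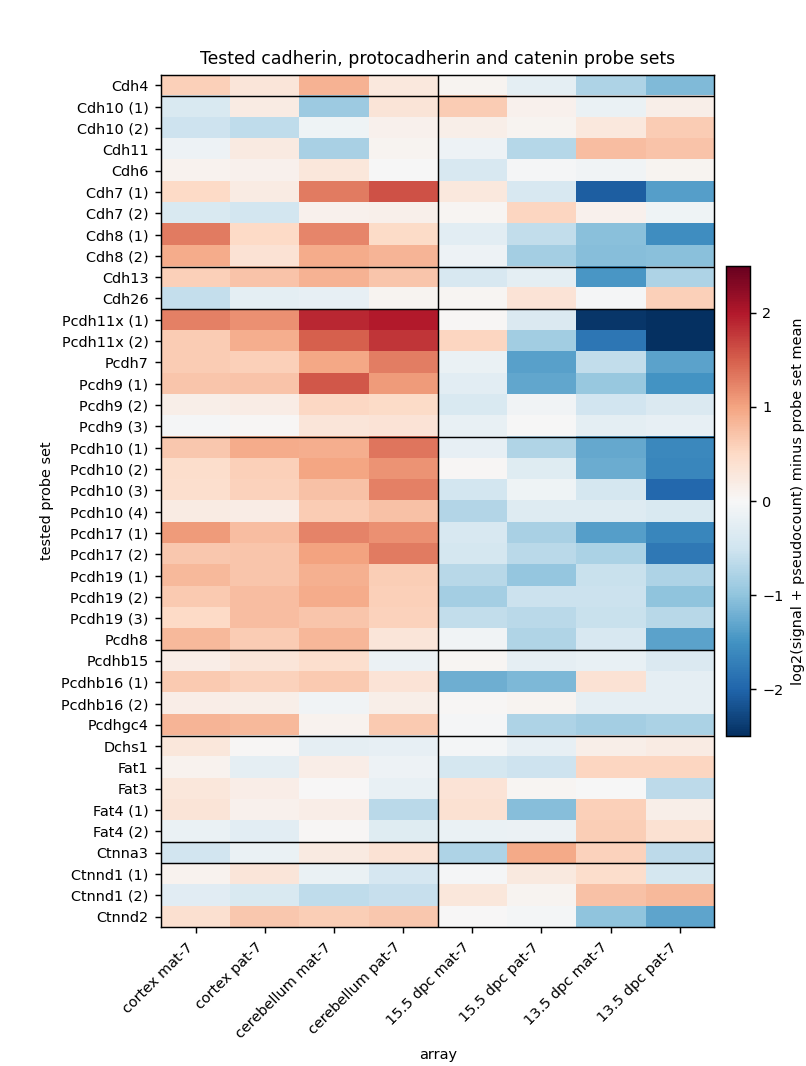
Each row is a tested member probe set and each column an array, with colour giving log2(signal + 58.5) minus the mean of that probe set over the 8 arrays. Lines divide the classes of the family and the neonatal from the embryonic arrays, and numbers after a gene order its probe sets by their neonatal minus embryonic difference. The delta protocadherin rows are mostly red on the 4 neonatal and mostly blue on the 4 embryonic arrays, and both Pcdh11x rows are darkest blue at 13.5 dpc.

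Among the delta-1 group, Pcdh11x, an X-linked protocadherin of neurons, had the steepest course. Its probe set 1436449_at had signals of 3550 and 3269 in cortex (maternal-7 and paternal-7 in this order here and below), 5484 and 5917 in cerebellum, 1485 and 1109 at 15.5 dpc, and 219 and 76.2 at 13.5 dpc. The contexts did not overlap, cerebellum was highest and 13.5 dpc lay below the array medians. The difference between neonatal and embryonic arrays was 3.13 ± 0.21 (adjusted p = 0.000581) and that between 15.5 and 13.5 dpc was 2.79 ± 0.29 (adjusted p = 0.0105). Since both 13.5 dpc signals were below the median of their arrays, which is used here as the level of background, the step between embryonic ages was at least 4.70-fold against that level. The second probe set, 1438889_at, read 1340 and 1639 in cortex, 2465 and 3042 in cerebellum, 1242 and 436 at 15.5 dpc, and 197 and 82.8 at 13.5 dpc. It followed the same order of contexts with a wider gap between the duplications at 15.5 dpc. Its differences were 2.41 ± 0.31 (adjusted p = 0.00274) between neonatal and embryonic arrays and 2.08 ± 0.43 (adjusted p = 0.0421, at least 2.69-fold) between embryonic ages. Without the 13.5 dpc pair, the neonatal minus embryonic difference of 1438889_at was 1.37 and no longer passed the test (adjusted p = 0.0788).

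Pcdh9, a delta-1 protocadherin of cortical and other neurons, had 3 tested probe sets that differed in size. Probe set 1429861_at read 2829 and 2876 in cortex, 5210 and 3675 in cerebellum, 1435 and 675 at 15.5 dpc, and 866 and 578 at 13.5 dpc. All neonatal arrays lay above all embryonic ones, and the rise was 2.0 ± 0.19 (adjusted p = 0.00116). Probe set 1442659_at, with 2799 to 3652 on neonatal and 1785 to 2357 on embryonic arrays, rose by 0.67 ± 0.13 (adjusted p = 0.0113). That call was lost when either cortex array was left out (0.65 and 0.68). It was also lost without the cerebellum pair (0.50, adjusted p = 0.098) or the 13.5 dpc pair (0.57, adjusted p = 0.0903). For 1458269_at the difference was 0.31 ± 0.12 and did not pass (adjusted p = 0.095). The probe sets of this gene thus disagreed by 1.69 log2 units, although none differed in sign. Pcdh7, also called NF-protocadherin, which acts in the axons of retinal neurons, read 1537 and 1497 in cortex, 1956 and 2448 in cerebellum, 854 and 343 at 15.5 dpc, and 608 and 346 at 13.5 dpc. Its rise was 1.75 ± 0.26 (adjusted p = 0.00418), with no overlap between neonatal and embryonic arrays.

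Within the delta-2 group, Pcdh17, a protocadherin that promotes collective axon extension and sits at synapses of the basal ganglia, rose most. Probe set 1453070_at read 3398 and 2783 in cortex, 3864 and 3624 in cerebellum, 1192 and 887 at 15.5 dpc, and 577 and 477 at 13.5 dpc. The order of 13.5 dpc, 15.5 dpc and neonatal arrays held without overlap, and the mean neonatal signal was 4.36 times the mean embryonic one (2.12 ± 0.13, adjusted p = 0.000574). The second probe set, 1436920_at, rose by 1.84 ± 0.22 (adjusted p = 0.00225) with the same order of the arrays.

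Pcdh10, also called OL-protocadherin, which guides striatal and thalamocortical axons, had 4 probe sets, and each rose. Probe set 1438134_at read 2410 and 2670 in cortex, 3554 and 3874 in cerebellum, 1785 and 1406 at 15.5 dpc, and 707 and 528 at 13.5 dpc. No context overlapped another, and the rise in the neonatal brain was 1.58 ± 0.15 (adjusted p = 0.00133). The others rose by 1.93 ± 0.20 (1430667_at), 1.49 ± 0.34 (1444301_at) and 0.87 ± 0.14 (1442565_at), with adjusted p-values of 0.00148, 0.0185 and 0.00563. The call of 1444301_at was lost when either cortex array, the paternal-7 cerebellum array or the maternal-7 15.5 dpc array was left out, with adjusted p-values of 0.0526 to 0.0862 and differences of 1.28 to 1.59.

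Pcdh19, an X-linked gene whose mutation causes epilepsy in human females, rose with each of its 3 probe sets. Probe set 1437360_at read 5428 and 4986 in cortex, 5702 and 4708 in cerebellum, 1868 and 1546 at 15.5 dpc, and 2084 and 1784 at 13.5 dpc. The neonatal arrays were high and both embryonic ages overlapped. The probe sets rose by 1.49 ± 0.12, 1.47 ± 0.17 and 1.27 ± 0.14 between embryonic and neonatal arrays (adjusted p = 0.00089, 0.00211 and 0.00164). Between embryonic ages their differences were -0.18 ± 0.18, 0.08 ± 0.24 and -0.02 ± 0.19, none past the threshold (adjusted p of at least 0.616). Pcdh8, or arcadlin, which removes cadherins from active synapses, read 4541 and 3976 in cortex, 4580 and 3165 in cerebellum, 2381 and 1492 at 15.5 dpc, and 1910 and 977 at 13.5 dpc. It rose by 1.29 ± 0.16 (adjusted p = 0.00243). Its probe set carries the _x_ suffix, which marks probes that may also bind other transcripts.

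The clustered protocadherins, which give single neurons their surface identity, were measured by only 4 tested probe sets, all dim. Pcdhgc4, a gamma-cluster isoform needed for the survival of interneurons, read 259 and 250 in cortex, 128 and 217 in cerebellum, 114 and 44.7 at 15.5 dpc, and 38.7 and 43.3 at 13.5 dpc. The neonatal arrays lay above the embryonic ones and the call (adjusted p = 0.00818) is 1 of the 23 above, but only 2 of the 8 signals were over the array medians. Against that level no rise could be measured, and no size is given. Of the probe sets for Pcdhb16, 1441358_at read 330 and 311.5 in cortex, 329 and 257 in cerebellum, 47.3 and 54.5 at 15.5 dpc, and 258 and 153 at 13.5 dpc. It rose between embryonic and neonatal arrays (1.11 ± 0.16, adjusted p = 0.00362, at least 1.13-fold against the medians). The maternal-7 signal at 13.5 dpc overlapped the neonatal ones, and without the 15.5 dpc pair the rise did not pass (0.49, adjusted p = 0.0809). This probe set was also called lower at 15.5 than at 13.5 dpc (adjusted p = 0.0301). All 4 embryonic signals were below the array medians, so no size is given for that call. The other, 1441994_at, differed by 0.18 ± 0.13 and 0.27 ± 0.18 in these contrasts (adjusted p = 0.309 and 0.437). Pcdhb15, whose _s_ probe set may bind related transcripts, differed by 0.37 ± 0.15 between neonatal and embryonic arrays (adjusted p = 0.112).

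Among the cadherins proper, Cdh13, or T-cadherin, which is anchored to the membrane by lipid and lacks the inner domain, also rose. It read 7253 and 7864 in cortex, 8840 and 7795 in cerebellum, 3611 and 4037 at 15.5 dpc, and 1707 and 2769 at 13.5 dpc. The ages did not overlap, and the rise was 1.44 ± 0.17 (adjusted p = 0.00216). Cdh4, or R-cadherin, a type I cadherin of retina and brain nuclei, read 5881 and 4807 in cortex, 7134 and 4671 in cerebellum, 4037 and 3264 at 15.5 dpc, and 2256 and 1781 at 13.5 dpc. It rose by 1.02 ± 0.13 (adjusted p = 0.00284). Without the 13.5 dpc pair its difference was 0.60 (adjusted p = 0.0816).

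The type II cadherins, whose combinations mark brain areas and neuron pools, were split. Cdh8, a type II cadherin of cortical areas and their targets, read 666 and 358 in cortex, 634 and 356 in cerebellum, 187 and 134 at 15.5 dpc, and 84.9 and 42.2 at 13.5 dpc with probe set 1441690_at. All its embryonic signals lay below the array medians, and the rise of 1.75 ± 0.14 (adjusted p = 0.000822) was at least 1.78-fold against that level. Its second probe set, 1455365_at, rose by 1.54 ± 0.17 (adjusted p = 0.00179). For Cdh7, a cadherin of migrating neurons and cerebellar inputs, 1444736_at read 334 and 262 in cortex, 623 and 774 in cerebellum, 273 and 153 at 15.5 dpc, and 7.8 and 48.8 at 13.5 dpc. It rose by 1.79 ± 0.23 (adjusted p = 0.00291), whereas the second Cdh7 probe set, 1456970_at, differed by -0.30 ± 0.16 (adjusted p = 0.19), so this gene's probe sets differed in sign by 2.09 log2 units. The call of 1444736_at was lost without the cerebellum pair (1.25, adjusted p = 0.0529) or the 13.5 dpc pair (0.97, adjusted p = 0.0591).

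Few members were lower in the neonatal brain. Ctnnd1, or p120-catenin, which keeps cadherins at the surface, was the clearest with probe set 1437448_s_at, an _s_ probe set that may bind related transcripts. It read 1245 and 1168 in cortex, 964 and 1005 in cerebellum, 1879 and 1611 at 15.5 dpc, and 2593 and 2731 at 13.5 dpc. All neonatal arrays lay below all embryonic ones, and 15.5 dpc lay between. The fall was 0.95 on the log2 scale (-0.95 ± 0.13, adjusted p = 0.00343), and without the 13.5 dpc pair it was -0.65 (adjusted p = 0.0662). The second probe set of this gene differed by -0.10 ± 0.22 (adjusted p = 0.726). Ctnnd2, or delta-catenin, a relative of p120-catenin found in neurons, moved the other way. It read 5309 and 6485 in cortex, 6229 and 6428 in cerebellum, 4045 and 3869 at 15.5 dpc, and 1974 and 1586 at 13.5 dpc, with no overlap between ages. It rose by 1.18 ± 0.15 (adjusted p = 0.00251), or by 0.62 without the 13.5 dpc pair (adjusted p = 0.0783).

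The other lower calls were weak. Cdh10, a type II cadherin, read 347 and 317 in cortex, 482 and 569 in cerebellum, 586 and 552 at 15.5 dpc, and 643 and 848 at 13.5 dpc with 1433302_at. The call (-0.57 ± 0.14, adjusted p = 0.0272) was lost when either array of cortex or cerebellum, the maternal-7 array of 15.5 dpc or the paternal-7 array of 13.5 dpc was left out (-0.64 to -0.48, adjusted p of 0.0615 to 0.123), and under median centring (-0.39, adjusted p = 0.0925). Its second tested probe set gave -0.38 ± 0.27 (adjusted p = 0.312). Cdh26, a cadherin of epithelia, read 204 to 358 on neonatal and 333 to 546 on embryonic arrays, which overlapped (-0.49 ± 0.13, adjusted p = 0.0345). That call held only without the maternal-7 array of 13.5 dpc when single arrays were left out, and it was lost under median centring (-0.31, adjusted p = 0.133).

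None of the 5 Fat and Dachsous probe sets differed between neonatal and embryonic arrays by limma at the threshold. Their differences ran from -0.35 to 0.15, with Fat3 at 0.15 ± 0.15, Fat1 at -0.07 ± 0.13, Dchs1 at -0.06 ± 0.13, and Fat4 at -0.04 ± 0.22 and -0.35 ± 0.13. Fat3, which shapes the dendrites of retinal neurons, read 1101 to 2262 over the 8 arrays. Cdh11 (-0.32 ± 0.24), Cdh6 (0.23 ± 0.15) and Ctnna3 (-0.04 ± 0.42), which are a mesenchymal cadherin, a cadherin of early neural boundaries and the alpha catenin of heart and testis, did not pass either. For Ctnna3 only 2 of the 8 signals were over the array medians.

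**Figure D2:**
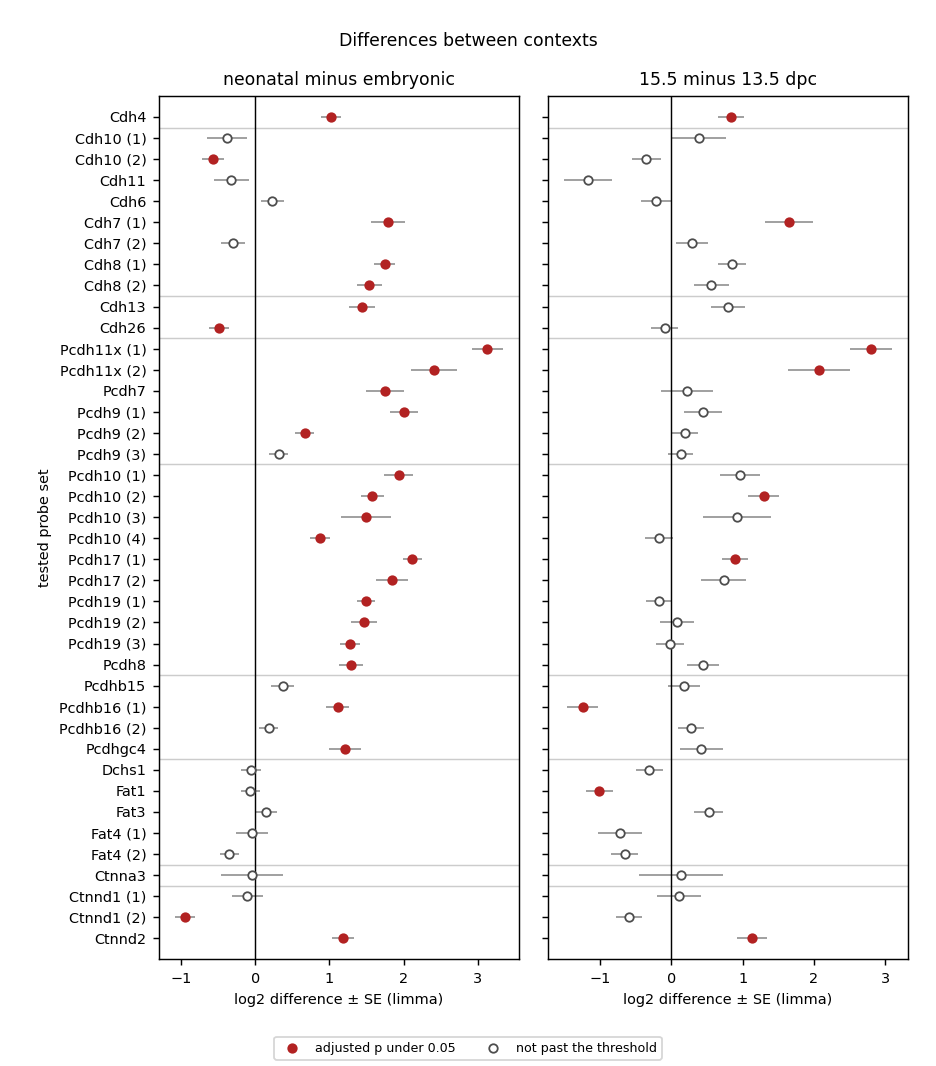
Points are log2 differences of the 40 tested member probe sets and bars are standard errors from limma, for neonatal minus embryonic (left) and 15.5 minus 13.5 dpc (right), with filled points past an adjusted p of 0.05. On the left 23 filled points lie above 0 and 3 below, and on the right 7 lie above and 2 below.

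Asked whether they differed between any of the 4 contexts, 25 of 40 member probe sets passed limma's F test, against 21.7% of all tested probe sets. Of these 25, 24 were also called between neonatal and embryonic arrays, and the remaining one was Fat1. In terms of single arrays, all 4 neonatal arrays lay above all 4 embryonic arrays for 21 of 40 member probe sets (11.8% of all), and below them for 1 (16.5%), which was Ctnnd1. For 12 members both 13.5 dpc arrays were lowest, both 15.5 dpc arrays intermediate and the neonatal arrays highest (7.09% of all). These were both probe sets of Pcdh11x, Pcdh17 and Cdh8, a pair for Pcdh10, those of Ctnnd2, Cdh13 and Cdh4, and that of Pcdhgc4, whose signals lay mostly below the medians. The opposite order was found for 1, again Ctnnd1 (6.16%). This count of ordered members was added after the values were seen.

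Of the 26 calls between neonatal and embryonic arrays, 14 held in every alternative in which they were tested: those of Pcdh7, Pcdh8, Cdh13, the steeper Pcdh9 and Pcdh11x probe sets, a pair for Pcdh10, both for Pcdh17 and Cdh8, and the 3 for Pcdh19. Both Cdh8 probe sets had passed the main filter only through neonatal arrays. One of them, 1441690_at, did not pass the filter on the mean, so it was tested in 20 alternatives, against 21 for the others. Without the 13.5 dpc pair 17 members rose and 0 fell, against 5.45% and 2.90% of all tested probe sets.

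Between the embryonic ages the family was again tilted upward, but the calls were fragile. From 13.5 to 15.5 dpc 7 of 40 member probe sets were called higher (3.52% of all) and 2 lower (3.07%), and the median was 0.25 for the members and -0.02 for all. Besides Pcdh11x, described above, the risers were Ctnnd2 (1.14 ± 0.21, adjusted p = 0.0316), Cdh4 (0.84 ± 0.19, adjusted p = 0.0482) and single probe sets of Pcdh10 and Pcdh17. For Pcdh10, 1438134_at rose (1.29 ± 0.22, adjusted p = 0.0267), while the other 3 differed by -0.17 (1442565_at), 0.92 (1444301_at) and 0.96 (1430667_at) and did not pass, so its probe sets disagreed in sign. For Pcdh17, 1453070_at rose (0.90 ± 0.18, adjusted p = 0.0399) and 1436920_at did not pass (0.73 ± 0.31, adjusted p = 0.224). The seventh call was that of Cdh7 (1444736_at, adjusted p = 0.0384), for which both 13.5 dpc signals and a 15.5 dpc signal were below the array medians, so no size is given. The second Cdh7 probe set differed by 0.29 ± 0.23 (adjusted p = 0.511). The 2 lower calls were those of Fat1 and of the dim Pcdhb16 probe set. Of the neuronal markers, 3 of 4 tested rose as well. So did 1 of 3 tested choroid plexus markers, Kcnj13 (1.03 ± 0.19, adjusted p = 0.0314). Among 4 tested cortical markers 1 rose, Neurod2 (1.45 ± 0.19, adjusted p = 0.0161). The part of these cells in the differences of the members was not tested.

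Fat1, a giant cadherin of neural progenitors and other epithelia, went down. It read 6376 and 5116 in cortex, 6725 and 5478 in cerebellum, 4441 and 4213 at 15.5 dpc, and 8765 and 8792 at 13.5 dpc. The 13.5 dpc arrays were highest and the 15.5 dpc arrays lowest, and the fall between them was 1.01 (-1.01 ± 0.19, adjusted p = 0.0324). Cdh11, the mesenchymal cadherin, read 1391 and 1350 at 13.5 dpc, 724 and 463 at 15.5 dpc, 722 and 937 in cortex, and 430 and 835 in cerebellum. Its difference of -1.16 ± 0.34 did not pass (adjusted p = 0.0968). Fat4, the binding partner of Dchs1 in the planar polarity of tissues, differed by -0.72 ± 0.31 and -0.65 ± 0.19 with its 2 probe sets (adjusted p = 0.226 and 0.0937). Prrx1, a mesenchymal transcription factor, fell by 2.90 in this contrast (-2.90 ± 0.23, adjusted p = 0.00579). The mesenchymal markers, Prrx1 among them, summed to 3025 and 3289 at 13.5 dpc against 526 to 600 at 15.5 dpc. Of the 3 mesenchymal markers on the array, Col1a2 was below the median on all 8 arrays. The remaining one, Dcn, did not pass (-0.47 ± 0.20, adjusted p = 0.22). The part of mesenchyme in the Fat1, Fat4 and Cdh11 values was not tested.

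The count of 9 calls between embryonic ages depended on single arrays. It was 0 when the paternal-7 array of either embryonic age was left out, 3 without the maternal-7 array of 13.5 dpc, and 1 without any other single array. Wherever a call was left in the alternatives run, that of Pcdh11x (1436449_at) was among them. With embryonic arrays only, the count was 0.

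**Figure D3:**
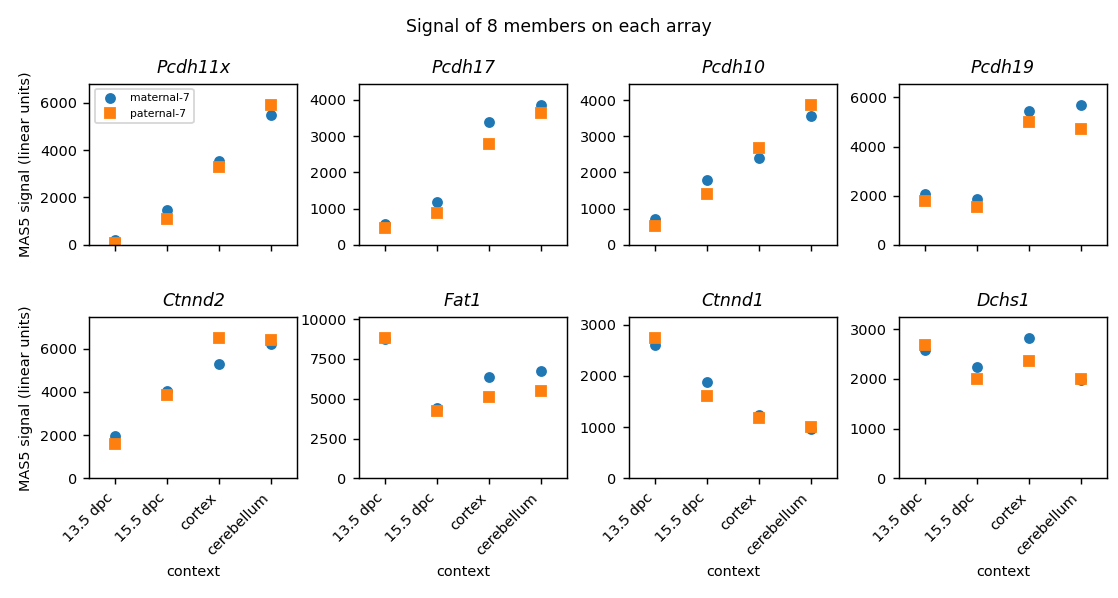
Points are MAS5 signals on a linear axis from 0, 1 panel for each of 8 members, by context, with circles for maternal-7 and squares for paternal-7 arrays. Pcdh11x, Pcdh17, Pcdh10 and Ctnnd2 climb from 13.5 dpc to the neonatal contexts, the embryonic ages of Pcdh19 overlap, Ctnnd1 declines, and Fat1 is lowest at 15.5 dpc.

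Between cortex and cerebellum, with 2 arrays a side, limma called 0 of 40 members, against 0.325% of all tested probe sets, and 5 members and 1011 probe sets had an unadjusted p under 0.05. This does not show that the regions were alike. The smallest adjusted p of a member was 0.433. Both cortex arrays lay below both cerebellum arrays for 16 of 40 members (21.4% of all) and above them for 5 (19.6%). The 16 included every tested delta-1 probe set, both for Pcdh17, 3 of 4 for Pcdh10 and both for Cdh7, along with Cdh26, Ctnna3 (all neonatal signals below the medians) and the 1433302_at probe set of Cdh10.
The lowest values were those of Cdh7 (-1.09 ± 0.33), Pcdh11x (-0.86 ± 0.43 and -0.73 ± 0.29) and Pcdh9 (-0.61 ± 0.27), beside that of Ctnna3, for which no size is given. When single arrays were left out they ran from -1.29 to -0.88 for Cdh7, from -1.34 to -0.38 and from -1.05 to -0.42 for Pcdh11x, and from -0.96 to -0.25 for Pcdh9. The highest were those of Ctnnd1 (1445830_at, 0.48 ± 0.30), Fat4 (1459749_s_at, 0.46 ± 0.31), Cdh11 (0.42 ± 0.34) and Dchs1 (0.37 ± 0.19). Leaving out single arrays moved these to between 0.23 and 0.73 for Ctnnd1, 0.11 and 0.81 for Fat4, -0.065 and 0.90 for Cdh11, and 0.26 and 0.48 for Dchs1. Pcdhgc4 was also among the highest but did not pass (adjusted p = 0.836), with cortex signals 1.09-fold over the medians of the cerebellum arrays. Its difference ran from 0.065 to 0.87 when single arrays were left out. The second probe set of Ctnnd1 gave 0.28 ± 0.18 and that of Fat4 -0.08 ± 0.19, so the Fat4 probe sets differed in sign. The tested probe sets of Cdh10 did so too (-0.58 ± 0.20 and 0.21 ± 0.38), as did those of Cdh8 and Pcdh19, with values between -0.24 and 0.04.

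The duplications were the question of the study. Limma called 0 of 40 members between paternal-7 and maternal-7 arrays, against 0.00756% of all tested probe sets, which is 1 probe set. At an unadjusted p under 0.05 there were 6 members and 1147 probe sets. The differences of the members ran from -0.74 to 0.40, and the smallest adjusted p was 0.532. None of the 5 tested probe sets on chromosomes 7 and 15 was called. Dchs1, on chromosome 7, read 2814 and 2350 in cortex, 1974 and 1987 in cerebellum, 2228 and 1994 at 15.5 dpc, and 2572 and 2677 at 13.5 dpc, a difference of -0.09 ± 0.13 (adjusted p = 0.854). On chromosome 15, Ctnnd2 differed by -0.01 ± 0.15, Cdh6 by 0.06 ± 0.15, and Cdh10 by 0.10 ± 0.14 and 0.40 ± 0.27 (adjusted p of 0.66 to 0.988). The latter, of 1460538_at, was the highest of all 40 members and was larger over the neonatal arrays (242 and 395 in cortex, 151 and 428 in cerebellum, against 552 and 366 at 15.5 dpc and 292 and 377 at 13.5 dpc), with 0.90 over those alone and -0.11 over the embryonic ones. The remaining Cdh10 probe set, 1446399_at, had 1 of its 8 signals over the median and was not tested. Cdh18, also on chromosome 15, had signals of 12.2 to 51.7 and was not tested. Whether these genes lie inside the duplicated segments was not determined, since the breakpoints were not given in the labels.

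Fat4, with the _s_ probe set 1459749_s_at, which may bind related transcripts, had the lowest value of the members. It read 939 and 802 in cortex, 842 and 444 in cerebellum, 988 and 324 at 15.5 dpc, and 1158 and 831 at 13.5 dpc, and was lower on the paternal-7 array of every context (-0.74 ± 0.22, adjusted p = 0.535). The second Fat4 probe set gave -0.17 ± 0.13 (adjusted p = 0.701). Cdh8 (1441690_at, -0.60 ± 0.14), Pcdh8 (-0.57 ± 0.16), Pcdh9 (1429861_at, -0.51 ± 0.19) and Pcdh11x (1438889_at, -0.42 ± 0.31) followed, each with an adjusted p of at least 0.532. The second probe sets of Cdh8 and Pcdh11x gave -0.33 ± 0.17 and -0.36 ± 0.21. Those of Pcdh9 differed in sign, with 0.10 ± 0.13 for 1442659_at and 0.08 ± 0.12 for 1458269_at. At the other end, Cdh10 was followed by Cdh26 (0.38 ± 0.13), Ctnna3 (0.23 ± 0.42, mostly below the medians), Cdh13 (0.19 ± 0.17) and Cdh11 (0.15 ± 0.24). The signs of Ctnna3, Cdh13, Cdh11 and the 1460538_at probe set of Cdh10, and that of Pcdh11x (1438889_at), turned when part of the arrays was left out.

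Over the 4 contexts, 7 of 40 member probe sets were lower on every paternal-7 array (9.08% of all) and 2 were higher on every one (9.67%). The 7 were those of Fat3, Fat4 (1459749_s_at), Pcdh17 (1453070_at), Pcdh19 (1437360_at), Pcdh8, Cdh4 and Cdh8 (1441690_at), none on chromosome 7 or 15, and the 2 were those of Cdh26 and Pcdh9 (1458269_at). The median difference was -0.10 for the members and 0.01 for all tested probe sets. Within single pairs, counting probe sets that passed the 75th percentile of at least 1 of both arrays, no member was at least 2-fold higher on the paternal-7 array in cortex (0 of 28, against 0.737% of all), cerebellum (0 of 30, 0.654%), at 15.5 dpc (0 of 26, 1.51%) or at 13.5 dpc (0 of 20, 1.33%). At least 2-fold lower were 0 of 28 in cortex (0.737%), 0 of 30 in cerebellum (0.671%), 4 of 26 at 15.5 dpc (2.33%) and 1 of 20 at 13.5 dpc (1.95%). The 4 were Fat4 (1459749_s_at), Pcdh11x (1438889_at), Pcdh7 and Pcdh9 (1429861_at), with differences of -1.45, -1.40, -1.18 and -1.03. The 1 was Pcdh17 (1436920_at) at -1.0. On the same arrays the other tested probe sets gave 0.01 for Fat4, -0.40 for Pcdh11x, 0.28 and 0.18 for Pcdh9 and -0.25 for Pcdh17. Each of these differences rests on 1 array a side, so they have no replicate check. A difference of the duplication effect between neonatal and embryonic contexts was called for 0 members and 0 probe sets by limma (5 and 1209 at an unadjusted p under 0.05). Its largest value was that of Pcdh11x (1438889_at, 1.41 ± 0.29, adjusted p = 0.456).

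**Figure D4:**
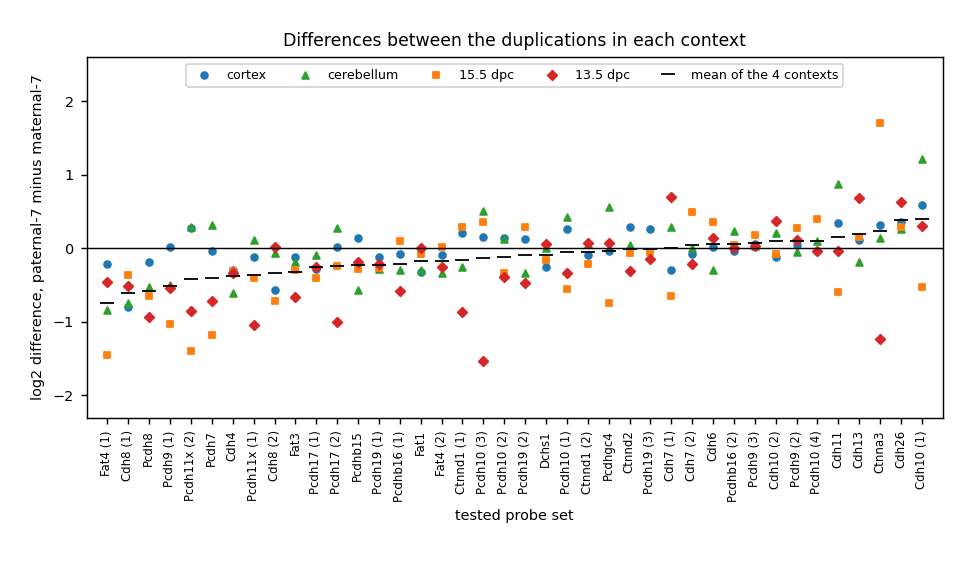
Points are log2 differences between the paternal-7 and the maternal-7 array of each context for the 40 tested member probe sets, ordered by the mean over the 4 contexts, which is drawn as a bar. The means lie between -0.74 and 0.40, and the points of cortex and cerebellum are closer to 0 than many of those at 15.5 and 13.5 dpc.

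Genes that work with this family are given as a description, in lists of 3 to 15 tested genes. They are to be read against the 14.3% of all tested probe sets that rose and the 16.4% that fell between embryonic and neonatal arrays. The lists take only the brightest tested probe set of each gene, so the comparison is not like for like. Of the junction partners of cadherins, 4 of 11 tested genes rose and 2 fell, with a median of -0.0006. The risers were the adhesion receptor Nectin1 (0.66 ± 0.13), the scaffold Magi1 (0.69 ± 0.15), the phosphatase Ptprk (0.78 ± 0.16) and the scaffold Lin7a (0.58 ± 0.17). The actin-binding Lima1 (-1.80 ± 0.38) and the scaffold Dlg1 (-0.51 ± 0.15) fell, all with adjusted p-values under the threshold (0.0106, 0.0159, 0.0135, 0.0453, 0.0144 and 0.0414). Of 11 tested planar polarity and Fat signalling partners, 1 rose (Prickle2, 0.64 ± 0.13, adjusted p = 0.0135) and 2 fell (Lix1l, -0.96 ± 0.13, and Mpdz, -0.50 ± 0.14, adjusted p = 0.00373 and 0.0387), with a median of 0.01.

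Of 15 tested beta-catenin and Wnt partners, 3 rose and 4 fell, with a median of -0.19. Apc, a scaffold of the complex that marks beta-catenin for destruction, rose by 1.21 ± 0.20 (adjusted p = 0.00609). The secreted Wnt antagonist Sfrp1 fell by 0.93 (-0.93 ± 0.17, adjusted p = 0.00841). The other risers were Btrc (0.95 ± 0.16) and Amer2 (0.99 ± 0.29), and the others that fell were Lgr5 (-0.77 ± 0.14), Nkd1 (-0.70 ± 0.14) and Bcl9l (-0.63 ± 0.15). Of 3 tested genes of the reelin pathway, which acts through cadherins in migrating neurons, Reln fell (-0.64 ± 0.19, adjusted p = 0.0466), while Lrp8 (0.44 ± 0.14) and Vldlr (0.18 ± 0.13) did not pass.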

How the data were processed

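Each of 8 RNA samples has 1 Affymetrix 430B array. The deposited values are linear signal intensities that the authors made with MAS5, per the submitters' processing notes. Its version and scaling are not given in the sources used here, but the mean between the 2nd and 98th percentile was 499.9 on every array, and the values were not normalized again. After 64 control probe sets were set aside, 14661 of 22511 probe sets had 1 symbol in the platform annotation, 245 several and 7605 none. The pseudocount of 58.5 is the 20th percentile of a typical (median) array. Limma 3.58.1 (R 4.3.3) was fitted to log2(signal + 58.5) of 13221 tested probe sets with terms for context and duplication and 3 residual degrees of freedom. Benjamini-Hochberg adjustment ran over all of them, with a threshold of 0.05. A second model tested the difference of the duplication effect between ages. The contrasts of the first model were tested on simulated data with 200 changed probe sets, and the second model was not. An "at least" fold divides the bright arrays' geometric mean by that of the dim arrays, whose signals are first raised to the array median. Alternatives were quantile normalization, median centring, other pseudocounts and filters, an intensity trend, and leaving out arrays or context pairs. Named were members called in any fit, the 5 largest differences per direction and contrast, the 10 brightest, those of chromosomes 7 and 15, and genes whose probe sets disagreed. Partner and marker lists take the brightest probe set of a gene. Members and lists were chosen with earlier results of these data known.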

Additional observations from a re-analysis of the deposited data

How the results depend on the processing

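Over 22 alternatives, none of the 35 called differences of members changed direction, and the counts of calls between the duplications, between cortex and cerebellum, and of the difference in duplication effect stayed at 0. The count between 15.5 and 13.5 dpc (9) was 4 with signals floored at 1, 1 with no filter, 1 without the cortex pair, 1 without the cerebellum pair, 0 with embryonic arrays only, and 0 to 3 when single arrays were left out. The cause of the first of these was not tested, while no filter tests more probe sets and the others use fewer arrays. Between neonatal and embryonic arrays (26) it was 17 without the 13.5 dpc pair and 22 to 26 when single arrays were left out, and for the F test (25) it was 9 without that pair and 19 to 23. Members at least 2-fold apart within a context (5) were 3 with double the pseudocount, which shrinks differences by construction. Of the differences that passed no test, those between the duplications reversed for Cdh10 1460538_at (-0.11, embryonic arrays only), Cdh11 (-0.092 without the cerebellum pair, -0.31 with embryonic arrays only, -0.092 to 0.39 over single arrays), Cdh13 (-0.032, neonatal arrays only), Ctnna3 (-0.26 without the 15.5 dpc pair, -0.26 to 0.72 over single arrays) and Pcdh11x 1438889_at (0.29, neonatal arrays only). Cortex minus cerebellum of Cdh11 ran from -0.065 to 0.90 over single arrays. Low signals limit the clustered protocadherins, Cdh8 and the 1444736_at probe set of Cdh7, whose embryonic signals lay near or below the array medians, and the 8 arrays limit the precision of every contrast.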
